A study of Mus musculus with 14 samples.

Results

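The genes described here encode the protein subunits of the cytosolic ribosome, and they were chosen by name as every mouse symbol made of Rpl, Rps or Rplp and a number, with an optional a, x or l. The rule found 80 of 24421 genes in the count tables, 49 of the large subunit and 31 of the small one, spread over 19 chromosomes with 4 on the X chromosome. Polyadenylated RNA came from gastric tumours of the mouse, transplanted either under the skin (subcutaneous) or into the organ of origin (orthotopic) and taken 2 months later as pieces of about 1 cm3. Of the 12 libraries 9 were subcutaneous, with 3 each of the tumours called TM, TMP and TMPC, and 3 were orthotopic TMPC. What the letters of these names stand for is not given, nor are the host strain, its age or the number of cell clones behind a group, and the names are used as they stand. Since no label ties replicates to separate animals, a p-value here covers only library-to-library spread, possibly of technical origin.

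A ribosome joins a small subunit, which reads the messenger RNA, to a large subunit, which makes the peptide bond, and each subunit holds ribosomal RNA and one copy of nearly every ribosomal protein. The messenger RNAs of these proteins are among the most abundant of a growing cell. In vertebrates most of them begin with a cytosine followed by an unbroken run of pyrimidines, the 5' terminal oligopyrimidine tract, through which the mTOR kinase and the RNA-binding protein Larp1 control their translation and stability, and the transcription factor Myc raises the transcription of many genes for ribosome production.

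The symbol rule took in paralogues with restricted expression and missed a few subunits named otherwise. Rpsa, Rps3a1 and Fau encode ribosomal proteins but do not match it, and they are counted with the related genes at the end. Rpl3l, known from heart and skeletal muscle, and Rpl10l and Rpl39l, known from testis, do match it, as does Rps4l, which GENCODE classes as a transcribed processed pseudogene.

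Total counts ranged from 16584781 to 21107310 per library. By total counts alone, 3 counts corresponded to between 0.142 and 0.181 CPM (counts scaled to library size). All other CPM values, save the bound given below for a count of 0, used TMM factors over all 12 libraries, which ran from 0.874 to 1.12. Libraries of a group differed by far more than sampling noise, with a chi-square per degree of freedom of 29.8 to 450 between pairs, so none was a duplicate of another. Replicate 2 of TM stood apart in cell markers. Its 10 epithelial markers summed to 225 CPM, against 3726 and 4029 CPM in the other TM libraries, and its neutrophil markers to 3344 CPM against 115 and 178 CPM. Replicate 3 of orthotopic TMPC had 7663 CPM of liver markers, against 42.9 and 47.1 CPM in the other orthotopic libraries. The gastric markers Cldn18, Tff1 and Gkn2 had at most 3 counts in every subcutaneous TMP and TMPC library, whereas the summed epithelial list stood at 928 to 3720 CPM there and at 6195 to 10753 CPM in orthotopic TMPC.

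The starts of 10 genes to which the results return are shown because the pyrimidine tract lies at the start of the transcript. Each line gives 40 bases before the RefSeq start and 20 bases from it, 5' to 3' on the strand of the gene (GRCm38.p6), and capitals mark the longest run of at least 8 C or T letters that reaches within 20 bases of the start, or the first of them where runs are equally long, as in Rps27l.
Rps26, chr10:128626487-128626546, minus strand: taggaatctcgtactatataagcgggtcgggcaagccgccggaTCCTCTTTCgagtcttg
Rpl31, chr1:39367811-39367870, plus strand: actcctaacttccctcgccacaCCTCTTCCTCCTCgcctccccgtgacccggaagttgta
Rps27l, chr9:66946046-66946105, plus strand: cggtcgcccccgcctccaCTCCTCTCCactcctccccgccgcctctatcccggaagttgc
Rps24, chr14:24490713-24490772, plus strand: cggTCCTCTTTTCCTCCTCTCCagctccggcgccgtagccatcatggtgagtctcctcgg
Rps2, chr17:24720023-24720082, plus strand: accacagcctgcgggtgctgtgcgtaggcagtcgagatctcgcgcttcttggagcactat
Rplp0, chr5:115559427-115559486, plus strand: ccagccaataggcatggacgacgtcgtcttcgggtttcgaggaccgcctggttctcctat
Rpl36a, chrX:134585614-134585673, plus strand: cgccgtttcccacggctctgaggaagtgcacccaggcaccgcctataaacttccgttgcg
Rpl27, chr11:101442205-101442264, plus strand: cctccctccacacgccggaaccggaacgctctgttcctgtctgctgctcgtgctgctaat
Rpl41, chr10:128549149-128549208, minus strand: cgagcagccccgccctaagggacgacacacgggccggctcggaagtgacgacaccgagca
Rpl37a, chr1:72711220-72711279, plus strand: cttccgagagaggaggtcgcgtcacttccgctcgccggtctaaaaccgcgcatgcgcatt

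The first 4 of these starts hold such a run and the other 6 do not. In Rpl31, Rps27l and Rps24 the marked run ends before the RefSeq start, and in Rps26 it begins after it. None covers the start itself, so a marked run is not shown to be a 5' terminal tract. For Rps26, Rps24, Rps2, Rpl27, Rpl41 and Rpl37a the outermost GENCODE start of the gene lies outside the printed window. A run at such another start is not covered here. Of the 80 genes, 59 had an entry in the RefSeq table of promoters, and a run of at least 8 C or T letters reached within 20 bases of at least 1 annotated start in 32 of them (54.2%), against 23.7% of the 27025 genes in the table. In the whole window of 300 bases, searched on both strands, the motif CGGAAGT, the core bound by ETS factors, was found in 20 of 59 genes (33.9%) against 7.20% of all genes. The palindrome TCGCGAGA was found in 10 of 59 (16.9%) against 1.13%. The E-box CACGTG, a sequence that Myc can bind, was found in 6 of 59 (10.2%) against 8.09%. These shares describe letters in the windows, not binding.

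Ribosomal protein genes took a large part of the messenger RNA in every tumour. Of the 80 genes, 72 had a mean of at least 100 CPM over the 12 libraries, and per kilobase of their GENCODE principal transcript their levels ran from 108 to 2648 CPM with a median of 1044 CPM per kb. Rplp1, a stalk protein, had the highest level with 2648 CPM per kb, followed by Rps12 with 2462 and Rpl23a with 2106 CPM per kb. Rps15a and Rps20 had the lowest levels of the 72, at 108 and 180 CPM per kb, but the transcripts chosen for them are 5130 and 3706 bases long.

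The other 8 genes had means between 0 and 50.9 CPM. Rpl10l had 0 counts in all 12 libraries, Rpl3l had 0 to 16 and Rpl39l had 0 to 29 counts. A count of 0 allows up to 0.181 CPM, by total counts without the TMM factor, in the library with the fewest counts. Rps4l, whose single exon lies at chr6:148354656-148355598 (mm10, plus strand), had 70 to 2466 counts. The remaining 4, Rpl26, Rpl30, Rpl34 and Rps27, encode subunits that every ribosome carries, yet Rpl26 was listed at 0 in all libraries, Rpl30 had at most 14 counts, Rpl34 had 16 to 45 and Rps27 had 8 to 31 counts. Their listed values cannot stand for the transcripts of these subunits. Of the 100-base windows of their transcripts, 31.0% to 98.4% (median 45.1%) also occur exactly in the exons of other genes, against 0% to 91.6% (median 39.8%) for the 75 other coding members, and Rps27 had the 98.4%. Its near copy Rps27rt, and Rpl34-ps1 for Rpl34, had 0 counts in all libraries. How the authors counted reads that match several genes is not given in the sources used here, and the part of such reads in these values was not tested. In all, 70 of 79 coding members share at least 1 window with another gene, and in 33 of them over 50% of windows are shared, so that the level of a single gene is uncertain to that extent.

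The 80 genes together held 6.18%, 3.78% and 7.09% of all counts in the TM libraries, 7.87%, 6.04% and 6.76% in TMP, and 6.81%, 7.16% and 8.54% in subcutaneous TMPC. In orthotopic TMPC they held 4.30%, 4.88% and 4.81%. Group means were 5.69% ± 1.71 (SD, n = 3) in TM, 6.89% ± 0.925 in TMP, 7.51% ± 0.915 in subcutaneous TMPC and 4.66% ± 0.316 in orthotopic TMPC. All 3 orthotopic libraries lay below all 6 subcutaneous TMP and TMPC libraries, and only replicate 2 of TM was lower than they were. Counting error was far smaller than these differences: the 95% exact binomial interval, which covers counting error only, ran from 3.77% to 3.79% in TM replicate 2.

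**Figure D1:**
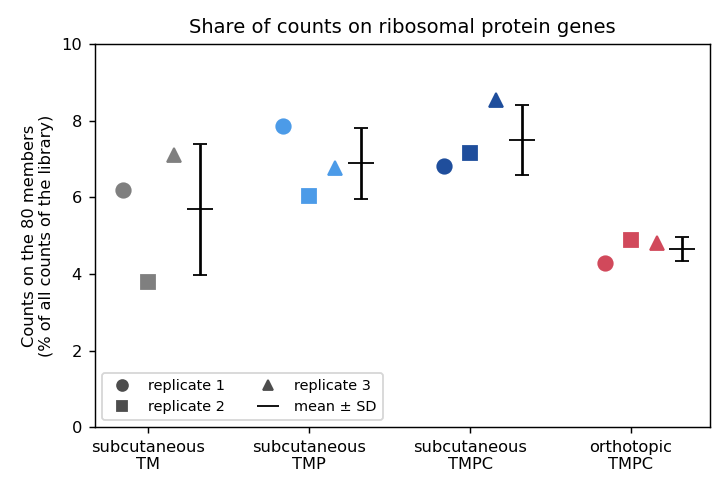
Share of all counts of a library that fell on the 80 ribosomal protein genes (percent, vertical axis) in the 4 groups. Each coloured point is a library, with circle, square and triangle for replicates 1, 2 and 3, and the black marks are group means ± SD. The orthotopic libraries sit between 4.30% and 4.88%, the subcutaneous TMPC libraries between 6.81% and 8.54%.

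The site comparison asks how tumours with the same label, TMPC, differ between the organ of origin and the skin. Ribosomal protein genes were lower at the orthotopic site as a family. Of 80 genes, 75 passed the filter on low counts, and 41 of them (54.7%) fell and 0 rose in edgeR's quasi-likelihood test at a Benjamini-Hochberg adjusted p under 0.05 over all genes, against 13.8% of 15123 genes that fell, 14% that rose and 27.8% that changed either way. The median log2 fold change, orthotopic minus subcutaneous, was -0.73, a fold of 0.603, while the median of all genes was 0.05. The log2 fold changes of all 75 genes were negative, from -0.20 in Rpl34 to -2.32 in Rps4l, and no member was positive in any of the 13 alternative settings either. In 69 of 75 genes (92%) all 3 orthotopic libraries lay below all 3 subcutaneous ones, against 26.5% of all genes, and in 0 all lay above, against 22.3%. The exceptions were Rpl15, Rpl24, Rpl34, Rps24, Rps27 and Rps29. Members largely moved together within a library, and the alternative settings reuse the same libraries. These counts of members are therefore not independent observations. In the large subunit 26 of 44 genes fell (median -0.75), and in the small subunit 15 of 31 (median -0.71). Which genes passed the threshold depended on single libraries. The count was 37 or 40 without subcutaneous replicate 1 or orthotopic replicate 3. It was 7 and 2 without subcutaneous replicates 2 and 3, and 1 and 0 without orthotopic replicates 1 and 2, where the calls over all genes dropped from 4204 to 1221 and 387. The median stayed between -0.83 and -0.57 in these fits.

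Rpl8, which lies close to the catalytic centre of the large subunit (chr15:76904078-76906314, mm10, plus strand), had the smallest adjusted p. It stood at 1393, 1646 and 1673 CPM in the subcutaneous libraries and at 637, 748 and 841 CPM in the orthotopic ones. The groups were far apart, with a log2 fold change of -1.02 ± 0.18 (SE) and an adjusted p of 0.0143. Rps2, a small-subunit protein near the channel through which the messenger RNA enters (chr17:24718116-24721929, plus strand), fell from 2542, 2979 and 3154 CPM to 824, 1257 and 1446 CPM. Its log2 fold change of -1.24 ± 0.25 (adjusted p = 0.0189) was the largest fall after that of Rps4l. Of its 100-base windows, 64.7% recur in other genes, most of them its processed copies, against 1.73% for Rpl8. Rps26, at the channel through which the messenger RNA leaves, had 1136, 1355 and 1564 CPM under the skin and 686, 717 and 715 CPM in the orthotopic tumours (log2 fold change -0.87 ± 0.18, adjusted p = 0.0190). Its orthotopic libraries lay much closer together than the subcutaneous ones. Rpl32 fell from 768, 786 and 901 CPM to 369, 469 and 485 CPM (log2 fold change -0.83 ± 0.17, adjusted p = 0.0197).

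**Figure D2:**
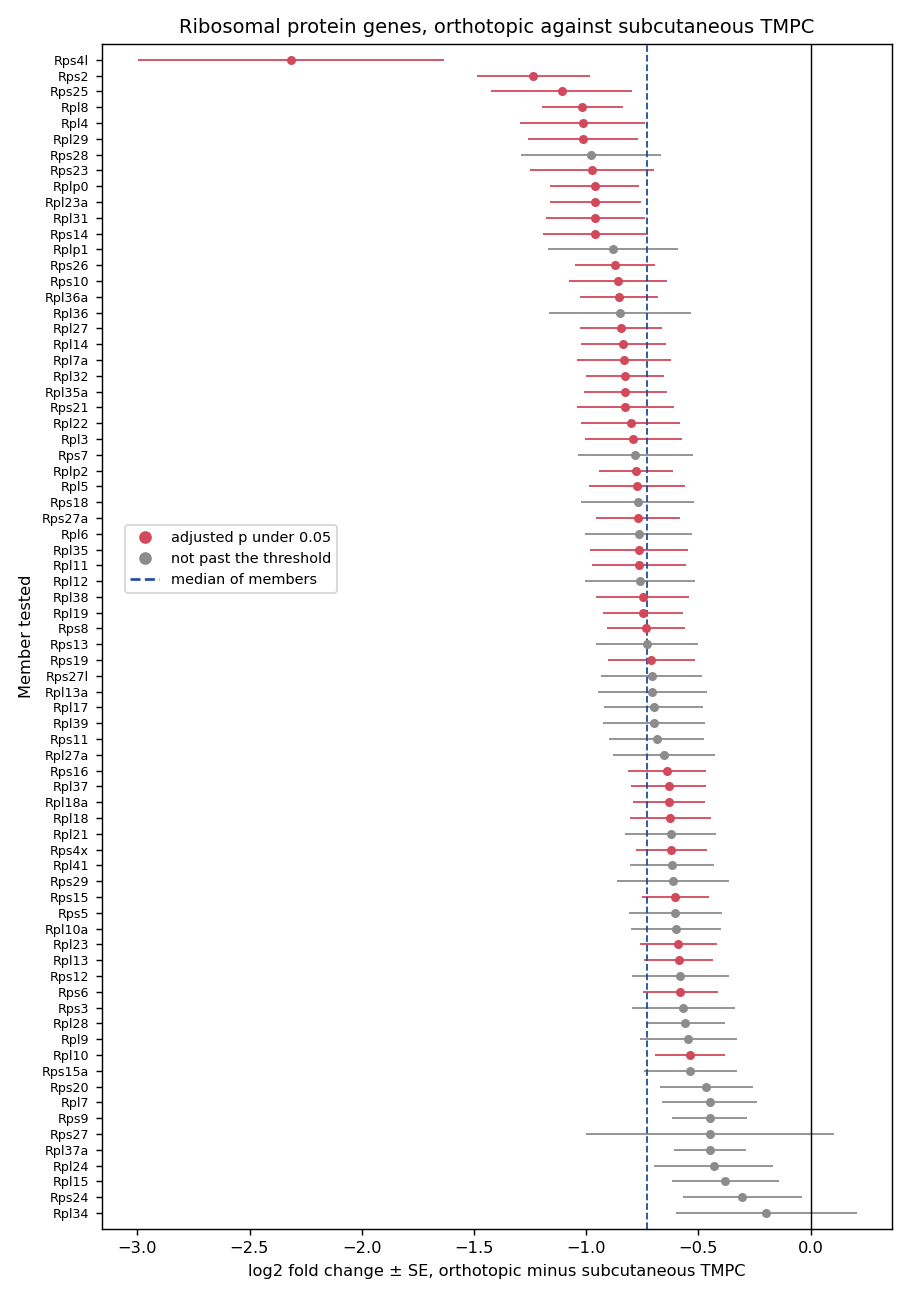
Log2 fold change of all but 1 of the 75 tested ribosomal protein genes, orthotopic minus subcutaneous TMPC (horizontal axis, points with bars of 1 SE), in order of size. Red points passed an adjusted p of 0.05 and grey ones did not. Every point lies left of 0 and most lie near the median of -0.73, with Rps4l far to the left and Rps24 and Rpl34 at the right end.

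The stalk, formed by Rplp0 and the acidic proteins Rplp1 and Rplp2, recruits elongation factors to the ribosome. Rplp0 (chr5:115559467-115563727, plus strand) stood at 3436, 3347 and 4054 CPM in subcutaneous TMPC and at 1485, 1918 and 1919.8 CPM in orthotopic TMPC, with a log2 fold change of -0.96 ± 0.20 (adjusted p = 0.0193). Rplp2 fell as well, from 744, 699 and 861 CPM to 384, 430.4 and 469 CPM (-0.78 ± 0.16, adjusted p = 0.0201). Rplp1 went from 1494, 1384 and 2496 CPM to 738, 1001 and 1058 CPM, without overlap, but its log2 fold change of -0.88 ± 0.29 had an adjusted p of 0.0635.

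Rpl5 and Rpl11 form a particle with the 5S ribosomal RNA that binds Mdm2 and so stabilises p53 when ribosome assembly fails. Rpl5 stood at 1285, 1577 and 1677 CPM under the skin and at 685, 830.3 and 1027 CPM at the orthotopic site, and it fell by 0.77 ± 0.21 on the log2 scale (adjusted p = 0.0411). Rpl11 went from 923, 1031 and 1389.6 CPM to 553, 658 and 673 CPM and fell by 0.76 ± 0.21 (adjusted p = 0.0403). Both values lie near the median of -0.73 over the tested members, whose quartiles were -0.83 and -0.59. Rps6 is the substrate of the S6 kinases downstream of mTOR. It went from 1243, 1439 and 1525 CPM to 819.8, 909 and 961 CPM (-0.58 ± 0.17, adjusted p = 0.0447). Its difference from the median member was not tested.

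Mutations of Rps19 and Rpl35a cause Diamond-Blackfan anaemia in humans. Rpl35a had 530.1, 576 and 762 CPM in subcutaneous TMPC and 331, 341 and 336 CPM in orthotopic TMPC, a fall of 0.83 ± 0.18 on the log2 scale (adjusted p = 0.0230). Rps19 fell by 0.71 ± 0.19 (adjusted p = 0.0396). Rpl22, which mouse T cells need to develop, fell by 0.80 ± 0.22 (adjusted p = 0.0395). Rps27a, made as a fusion with ubiquitin, went from 859.6, 1019.6 and 1210.1 CPM to 523, 599.8 and 612 CPM and fell by 0.77 ± 0.19 (adjusted p = 0.0284).

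Of the 4 genes on the X chromosome, 3 fell. Rpl36a fell from 484, 493 and 646 CPM to 272, 283 and 303 CPM, a log2 fold change of -0.86 ± 0.17 (adjusted p = 0.0184). Rps4x fell by 0.62 ± 0.16 (adjusted p = 0.0331) and Rpl10 by 0.54 ± 0.15 (adjusted p = 0.0446). Rpl39, at 361, 399 and 593 CPM against 255, 253 and 291 CPM, had a log2 fold change of -0.70 ± 0.23 and an adjusted p of 0.0603. Differences among these 4 genes were not tested.

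Rps4l, the pseudogene related to Rps4x, had the largest fold change and the largest scatter. Its subcutaneous TMPC libraries stood at 142, 122 and 51.3 CPM and its orthotopic ones at 20.1, 34.4 and 5.65 CPM, which gave a log2 fold change of -2.32 ± 0.68 (adjusted p = 0.0475). Rps27l, a paralogue of Rps27 known as a p53 target gene, went from 150.2, 152 and 231 CPM to 86.1, 110.0 and 116 CPM (-0.71 ± 0.23, adjusted p = 0.0583). Its partner Rps27 had 0.577, 1.31 and 0.768 CPM against 0.341, 0.678 and 0.847 CPM, too few counts to compare. Rpl3, the partner of the muscle gene Rpl3l, fell by 0.79 ± 0.21 (adjusted p = 0.0391). Rpl3l itself, Rpl10l and Rpl39l did not pass the filter on low counts in this comparison.

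Several of the members with the smallest values overlapped between the sites. Rps24, another gene of Diamond-Blackfan anaemia in humans, had 691, 691 and 1072 CPM in subcutaneous TMPC and 531, 566 and 805 CPM in orthotopic TMPC, a log2 fold change of -0.30 ± 0.26 (adjusted p = 0.413). Rpl15 stood at -0.38 ± 0.24 (adjusted p = 0.262) and Rpl24 at -0.43 ± 0.26 (adjusted p = 0.250). Rpl24 had 399.7 CPM in subcutaneous replicate 2, below 2 of the orthotopic values of 408, 371 and 428 CPM. Rpl37a, at -0.45 ± 0.16, did not overlap between sites, with 481, 394 and 509 CPM against 297, 337 and 336 CPM, and had an adjusted p of 0.0767. The genes of this paragraph were chosen after their values were seen.

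Markers of proliferation and of other cell types moved between the same sites. The 6 proliferation markers all fell, with summed levels of 1779 to 2119 CPM in subcutaneous and 503 to 877 CPM in orthotopic TMPC. Of 10 gastric and simple epithelial markers 7 rose and 0 fell, of 8 macrophage markers 2 rose (870.4 to 1595 CPM against 1720.1 to 2382 CPM), of 6 fibroblast markers 2 rose (3594 to 5528 CPM against 6418 to 18670.1 CPM), and of 6 skeletal muscle markers 5 fell (26.1 to 213 CPM against 3.30 to 7.58 CPM). Cldn18, Tff1, Muc5ac, Gkn2 and Muc6 had means of 0, 0.0181, 0.199, 0 and 0.131 CPM in subcutaneous TMPC. They passed the filter on low counts through the orthotopic libraries, so only a rise could be called in them. Ckm, Myh1 and Tnnt3 had means of 0.427, 0.0472 and 0.447 CPM in orthotopic TMPC. They passed it through the subcutaneous libraries, so hardly any call but a fall was open to them. Over all genes 14% rose and 13.8% fell, and lists of so few genes allow no reading of the smaller shares. The T and NK cell markers summed to at most 4.47 CPM in these 6 libraries, and the plasma and B cell markers to at most 22.6 CPM. In bulk tissue fewer cells of a type and less RNA per cell cannot be told apart, and the part of these shifts in the fall of the ribosomal protein genes was not tested. Without the orthotopic library with liver markers, the median fall was -0.81.

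**Figure D3:**
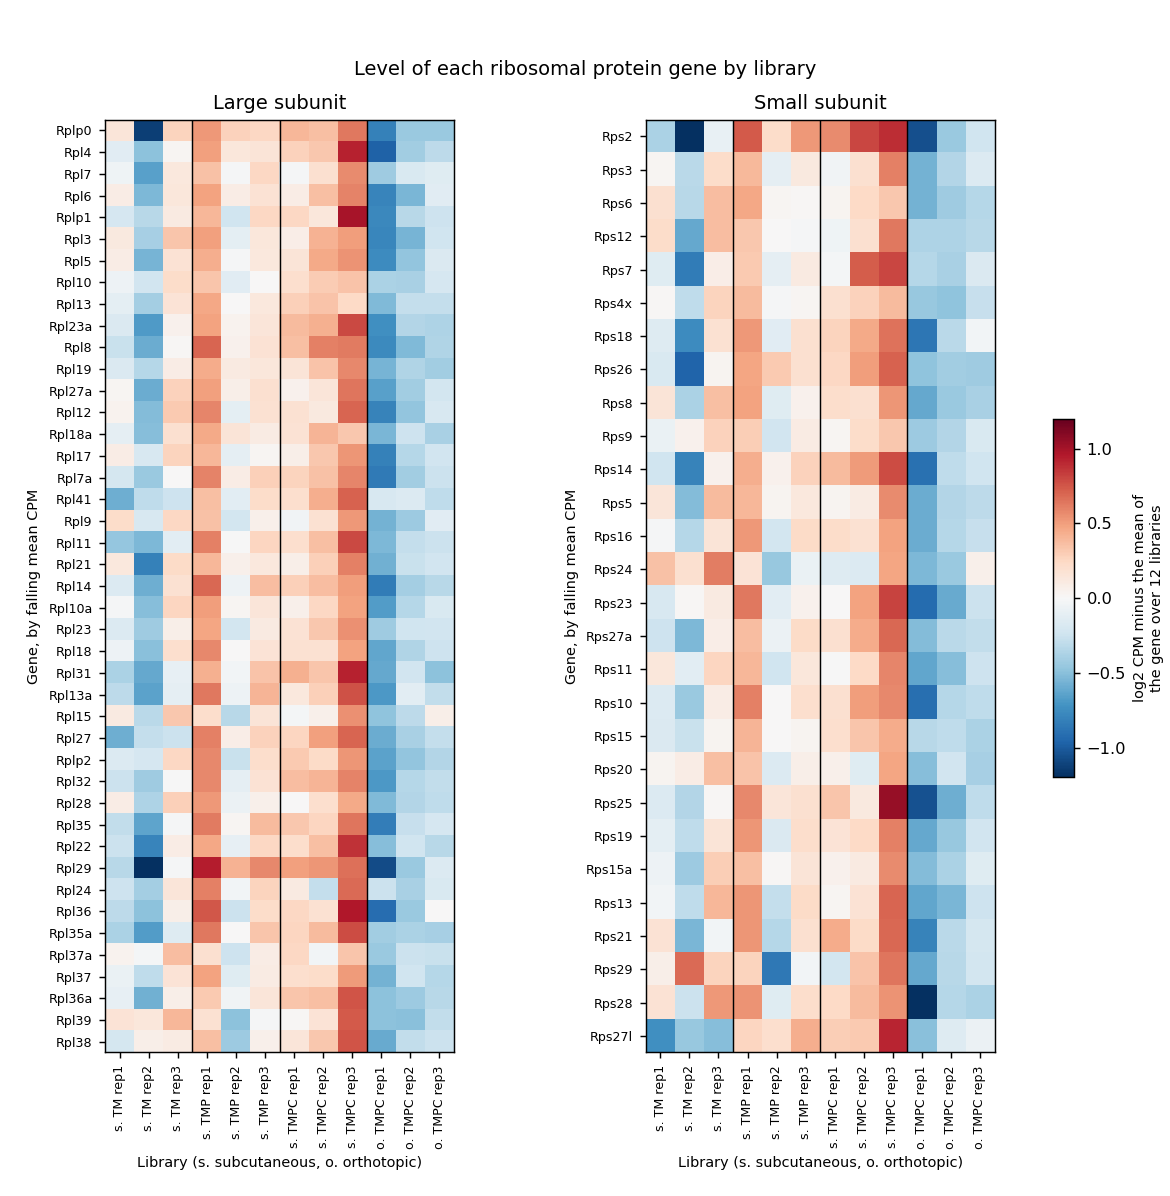
Log2 CPM of all but 1 of the 72 ribosomal protein genes with a mean of at least 100 CPM in each of the 12 libraries, minus the mean of the gene over those libraries (colour, red higher and blue lower), with the large subunit on the left and the small one on the right and genes ordered by falling mean CPM. Black lines separate the groups. Columns are of nearly one colour, blue in the 3 orthotopic libraries and in most of TM replicate 2, and reddest in subcutaneous TMPC replicate 3.

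Among the subcutaneous groups the mean share of counts was lowest in TM, but single TM libraries overlapped with those of TMP and TMPC. Without replicate 2, the library that stood apart, the TM mean was 6.64%. The comparison of TMPC with TM called 15 of 76 tested genes (19.7%) higher and 0 lower, against 18% of 15277 genes higher, 17.8% lower and 35.8% either way, so the share called higher was close to that of all genes. The median log2 fold change of the members was 0.38, against -0.07 over all genes, and 71 of 76 were positive. In 38 of 76 (50%) the TMPC libraries all lay above the TM libraries, against 25.9% of all genes, and in 1, Rpl39l, all lay below (21.6%). Called genes comprised 10 of the large subunit and 5 of the small one. Single libraries again moved the count. It was 3 without TMPC replicate 3, 6 without TMPC replicate 2 or TM replicate 1, and 7 without TMP replicate 3. Without the TM library that stood apart it was 10, with a median of 0.30.

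Rps27l had the smallest adjusted p in this comparison. It stood at 73.5, 89.3 and 85.4 CPM in TM and at 150.2, 152 and 231 CPM in TMPC, a log2 fold change of 1.04 ± 0.20 (adjusted p = 0.0066). The TM libraries were tight and the TMPC ones were spread by a single high library. Rps2 rose from 1315, 598 and 1612 CPM to 2542, 2979 and 3154 CPM (1.24 ± 0.33, adjusted p = 0.0218), and the lowest of its TM values was that of the library that stood apart. Rpl31 rose from 546, 463 and 661 CPM to 957, 894 and 1348 CPM (0.88 ± 0.22, adjusted p = 0.0184).

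Rpl27, at 406, 501 and 510.4 CPM in TM, stood at 732, 859.7 and 991 CPM in TMPC (0.80 ± 0.20, adjusted p = 0.0165). Rpl41, the shortest ribosomal protein, rose from 569, 689 and 718 CPM to 982, 1153 and 1392 CPM (0.77 ± 0.20, adjusted p = 0.0197). Neither gene overlapped between the groups, and neither has a pyrimidine run of 8 within 20 bases of the RefSeq start shown above. The outermost GENCODE start lies outside that window in both genes. Rps4l, at 13.3, 4.83 and 24.4 CPM in TM, rose by 2.83 ± 0.68 on the log2 scale (adjusted p = 0.0154).

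By role, some members passed against TM and others did not, and differences between members were not tested. In the 5S particle Rpl11, at 581, 552 and 733 CPM in TM against 923, 1031 and 1389.6 CPM in TMPC, rose by 0.78 ± 0.23 (adjusted p = 0.0295), while Rpl5 stood at 0.40 ± 0.22 (adjusted p = 0.197). The stalk proteins did not pass the threshold, with log2 fold changes of 0.53 ± 0.32 in Rplp0, 0.58 ± 0.28 in Rplp1 and 0.32 ± 0.23 in Rplp2 (adjusted p = 0.227, 0.133 and 0.302). Of the anaemia genes Rpl35a rose by 0.82 ± 0.22 (adjusted p = 0.0234), and Rps19 had a value of 0.36 ± 0.22 (adjusted p = 0.228).

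Rps6 differed hardly at all, with 1396, 968 and 1574 CPM in TM and a log2 fold change of 0.04 ± 0.22 (adjusted p = 0.910). Rpl22 stood at 0.73 ± 0.27 (adjusted p = 0.0688) and Rps27a at 0.61 ± 0.21 (adjusted p = 0.0538). On the X chromosome Rpl36a rose by 0.62 ± 0.20 (adjusted p = 0.0463), and Rps4x, Rpl10 and Rpl39 had 0.22 ± 0.19, 0.23 ± 0.18 and 0.04 ± 0.24 (adjusted p = 0.386, 0.328 and 0.922). Rpl39l, at 0.573, 0.621 and 1.31 CPM in TM against 0.0577, 0.327 and 0.154 CPM in TMPC, had a value of -2.24 ± 0.84 (adjusted p = 0.0691) at counts of 29 or fewer.

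In TMP against TM, 4 of 76 genes (5.26%) rose and 0 fell, against 14.3% of all genes that rose, 13.4% that fell and 27.7% that changed either way. The median was 0.26, against -0.07 over all genes, and 63 of 76 values were positive. The groups did not overlap for 18 genes (23.7%) that were higher in TMP, against 28.2% of all genes, and for 1 gene, Rps24 (1.32%), that was lower, against 22.5%. Both comparisons use the same TM libraries, so they are not independent of each other. Rps27l rose from the TM values given above to 146, 140.2 and 166 CPM (0.81 ± 0.20, adjusted p = 0.0217). Rpl27, at 927, 646 and 738 CPM in TMP, rose by 0.65 ± 0.20 (adjusted p = 0.0424).

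Rpl29, a small protein that mice can live without, rose from 377, 157 and 470.4 CPM in TM to 911, 631 and 707 CPM in TMP (1.12 ± 0.35, adjusted p = 0.0474). Rps4l, at 50.5, 108 and 34.8 CPM in TMP, rose by 2.14 ± 0.67 (adjusted p = 0.0456). Each of the 4 calls was lost without TMP replicate 1 and without TMP replicate 3. The count was 1 without TM replicate 1 or TMPC replicate 2 and 2 without TMP replicate 2 or TMPC replicate 1, and 4 without the TM library that stood apart, where 3 of these 4 genes were called. In the stalk Rplp0 had 0.42 ± 0.32, and in the 5S particle Rpl11 had 0.62 ± 0.23 (adjusted p = 0.349 and 0.0729). With 3 libraries a side the smallest two-sided p from exact permutation is 0.1, so none was computed for single genes.

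Between TMP and TMPC no difference was detected. EdgeR called 0 of 76 members and 0 of 15277 genes (0% higher and 0% lower), with 465 genes and 0 members at an unadjusted p under 0.05, and DESeq2 called 16 genes and 0 members. The median log2 fold change of the members was 0.15, against 0.01 over all genes, and 71 of 76 were positive. Without TMPC replicate 3 the median was 0.03 and 43 were positive. The groups did not overlap for 1 gene, Rpl36a, which was higher in TMPC, against 6.18% of all genes, and for 0 that were lower, against 6.28%. The smallest unadjusted p belonged to Rpl39 (0.41 ± 0.24), Rpl36a (0.35 ± 0.20), Rpl39l (-1.42 ± 0.84) and Rpl38 (0.40 ± 0.24), each with an adjusted p of 0.9999. In simulated counts for this comparison 33.3% of genes changed 4-fold were found and 0% of those changed 2-fold. The changed genes were drawn from tested genes of all levels, so these shares do not give the power for the abundant members.

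**Figure D4:**
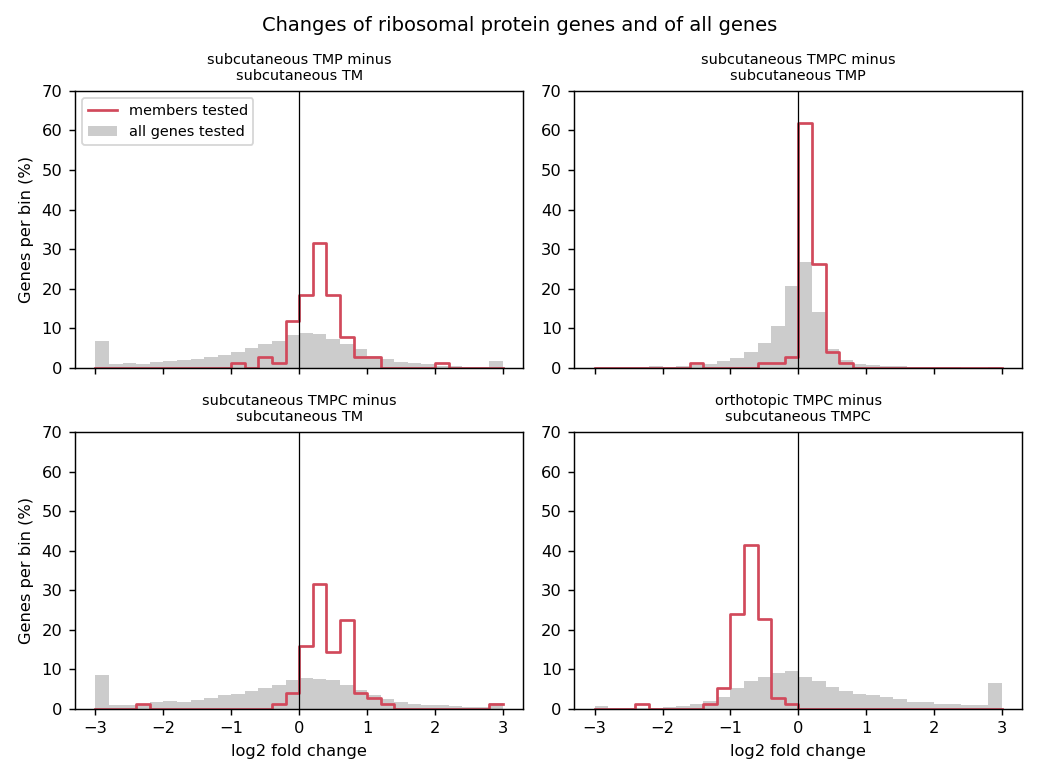
Percentage of genes in bins of 0.2 of the log2 fold change (horizontal axis) in the 4 comparisons, for all genes tested (grey bars) and the ribosomal protein genes tested (red line), with values beyond 3 gathered in the end bins. The red line is narrower than the grey bars in all panels and lies left of 0 around -0.73 in the site comparison.

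Markers of several other cell types and of dividing cells differed between the same groups. Macrophage markers summed to 3495 to 7143 CPM in TM and to 742 to 1595 CPM in TMP and TMPC, and 7 of 8 fell in both comparisons with TM, as did all 4 tested neutrophil markers and all 4 tested T and NK cell markers. The 8 T and NK cell markers summed to 11.2, 243 and 15.0 CPM in TM and to at most 2.65 CPM in TMP and TMPC. Those tested passed the filter on low counts through TM, so hardly any call but a fall was open to them. Neutrophil markers in TM also summed highest in replicate 2, with 115, 3344 and 178 CPM. The 6 proliferation markers rose in both, from 365 to 449.9 CPM in TM to 1431 to 1706 CPM in TMP and 1779 to 2119 CPM in TMPC. Skeletal muscle markers rose in 2 of 6 genes in TMP and in 3 of 6 in TMPC, with sums of 1.88 to 3.38 CPM in TM, up to 196 CPM in TMP and 26.1 to 213 CPM in TMPC. Of these, Ckm, Myh4 and Myh1 had at most 3 counts in every TM library, so only a rise could be called in them. Plasma and B cell markers fell in 2 and 3 of 4 tested genes, and their sum in TM was 2806 CPM in replicate 2 and 14.5 and 15.1 CPM in the other libraries. Jchain and Cd79b, with group means of at most 0.466 CPM in TMP and TMPC, also passed the filter through TM. Over all genes 13.4% fell and 14.3% rose in TMP against TM, and 17.8% fell and 18% rose in TMPC against TM. Between TMP and TMPC 0 markers of any list passed, beside 0% of all genes. The part of these shifts in the changes of the ribosomal protein genes was not tested.

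Set against the median member of the same library, a few genes left the common pattern. For the 73 members with a mean of at least 5 CPM, the SD of this relative level over the 12 libraries was smallest in Rpl18 (0.0754 log2 units), Rpl23 (0.0773), Rps19 (0.0775), Rpl10a (0.0855) and Rps27a (0.0858). It was largest in Rps4l (1.42), Rpl29 (0.465), Rps2 (0.449), Rps29 (0.448) and Rps24 (0.388). Because these genes were picked for their spread, the values are a description.

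Rps24 stood above the median member in TM, by 0.58, 0.74 and 0.57 log2 units, and below it in TMP, by -0.26, -0.28 and -0.16, and in subcutaneous TMPC, by -0.21, -0.39 and -0.04. In orthotopic TMPC it lay between, at 0.14, -0.05 and 0.37. Its relative level was thus higher in every TM library than in every other library, and its own CPM of 983, 880.2 and 1181 in TM and 866, 563 and 728 in TMP gave a log2 fold change of -0.55 ± 0.24 that did not pass (adjusted p = 0.119). Rps2 had the opposite order, with relative levels of 1.00, 0.18 and 1.02 in TM, 1.46, 1.55 and 1.59 in TMP, 1.67, 1.72 and 1.51 in subcutaneous TMPC and 0.78, 1.10 and 1.22 in orthotopic TMPC. TM and orthotopic TMPC overlapped with each other and not with the other groups.

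Rpl29 followed Rps2, with -0.81, -1.75 and -0.76 in TM and -0.19, -0.11 and -0.21 in TMP, but its subcutaneous TMPC values of -0.26, -0.41 and -0.56 overlapped with the orthotopic -1.10, -0.75 and -0.55. Rps29, another anaemia gene, was highest in the library that stood apart, which had 0.01 beside -0.93 or less in the other TM libraries and -1.91 to -1.10 in all other groups. Rps27l stood at -3.16, -2.56 and -3.22 in TM and between -2.82 and -2.26 in all other groups. Reads of Rps24, Rps2 and the others that fit another gene could shift such relative levels, and 10.7% and 64.7% of the windows of Rps24 and Rps2 are shared.

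**Figure D5:**
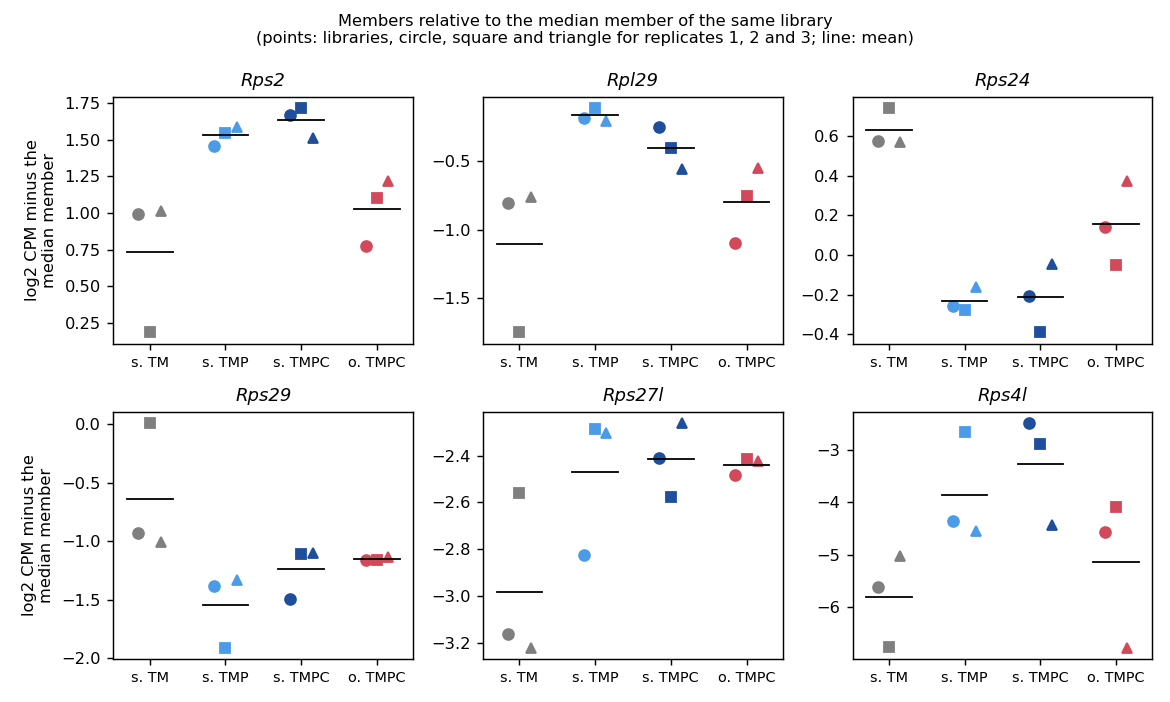
Log2 CPM of 6 ribosomal protein genes minus that of the median member of the same library (vertical axis, own scale in each panel) in the 4 groups, with each point a library and the line the group mean. Rps24 is highest in TM, whereas Rps2 and Rpl29 are highest in TMP and subcutaneous TMPC, and the Rps29 point near 0 is TM replicate 2.

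A list of ribosomal proteins and like-named paralogues outside the symbol rule had medians of the same sign as the members. At the site comparison 4 of 8 tested genes of that list fell, against 13.8% of all genes, and 0 rose, against 14%, with a median of -0.65. Rpsa, a small-subunit protein also called the laminin receptor, went from 2475, 2377 and 2324 CPM to 888, 1296 and 1542 CPM (-0.88 ± 0.23, adjusted p = 0.0363). In TMPC against TM 3 of 8 rose, against 18% of all genes, with a median of 0.55. Among them were the like-named paralogues Rpl7l1 with 1.30 ± 0.14 (adjusted p = 0.0008) and Rpl36al with 1.03 ± 0.25 (adjusted p = 0.0152). For TMP against TM it was 2 of 8, and for TMPC against TMP 0 of 8, beside 14.3% and 0% of all genes, and so few genes allow no reading of these shares. Of 5 tested pseudogenes with ribosomal protein names, Rpl14-ps1 fell by 1.00 ± 0.26 at the orthotopic site (adjusted p = 0.0351) and rose in TMPC against TM (1.24 ± 0.38, adjusted p = 0.0361).

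A list of 20 other genes, translation factors and a few such as Nap1l1, Npm1 and Hnrnpa1, was taken for messenger RNAs known to carry the same kind of pyrimidine tract. At the orthotopic site 13 of 20 fell and 0 rose (median -0.75), against 13.8% and 14% of all genes. Nap1l1, a nucleosome assembly protein, had 751, 831 and 801 CPM under the skin and 344, 319 and 411 CPM in orthotopic TMPC (-1.08 ± 0.16, adjusted p = 0.0106), and Eef1d, a subunit of the elongation factor 1 complex, fell by 0.92 ± 0.14 (adjusted p = 0.0108). In TMPC against TM 9 of 20 rose and 1 fell, against 18% and 17.8% of all genes, and in TMP against TM 4 rose and 1 fell, against 14.3% and 13.4%. The gene that fell in both was Tpt1, at 2212, 2182 and 2527 CPM in TM, 1339, 864 and 1137 CPM in TMP and 1057, 1163 and 1525 CPM in TMPC (-1.11 ± 0.21 and -0.95 ± 0.21, adjusted p = 0.0101 and 0.0120). Tpt1 did not fall at the orthotopic site (0.44 ± 0.20, adjusted p = 0.141).

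Factors that build and export ribosomes also moved. At the orthotopic site 12 of 17 fell (median -0.92), against 13.8% of all genes. In TMPC against TM 13 of 17 rose (median 1.00), against 18%, and in TMP against TM 13 of 17 rose (median 0.78), against 14.3%. In TMPC against TMP 0 of 17 changed, beside 0% of all genes. Mrto4, which helps to assemble the stalk, had 37.8, 27.0 and 45.2 CPM in TM, 132, 125 and 108 CPM in TMP, 135, 129 and 135 CPM in subcutaneous TMPC and 32.4, 47.2 and 54.9 CPM in orthotopic TMPC. The TMP and subcutaneous TMPC libraries all lay above the others, and its log2 fold change was -1.50 ± 0.21 between the sites (adjusted p = 0.0095) and 1.80 ± 0.19 in TMPC against TM (adjusted p = 0.0008). Lsg1, which acts late in the maturation of the large subunit, fell by 0.92 ± 0.16 between the sites (adjusted p = 0.0134).

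Of 15 regulators in the mTOR and Myc list, 2 fell and 1 rose at the orthotopic site, no larger a share than the 13.8% and 14% of all genes. Myc had 861, 798 and 898 CPM in subcutaneous and 67.4, 94.2 and 163 CPM in orthotopic TMPC, a log2 fold change of -2.91 ± 0.34 (adjusted p = 0.0087), and Larp1 fell by 0.92 ± 0.13 (adjusted p = 0.0103). Deptor, an inhibitor of mTOR, rose from 20.4, 17.7 and 17.9 CPM to 40.1, 37.5 and 39.5 CPM (1.13 ± 0.16, adjusted p = 0.0103). In TMPC against TM 5 of the 15 rose, against 18% of all genes, and 1 fell, against 17.8%. The 1 that fell was Deptor, by 2.22 ± 0.21 (adjusted p = 0.0006). Myc, at 459, 80.6 and 459.5 CPM in TM, had 1.31 ± 0.63 (adjusted p = 0.134). In TMP against TM 1 rose and 1 fell, against 14.3% and 13.4% of all genes. Of 10 tested genes of ribosome stress and surveillance, 0 changed at the orthotopic site, against 27.8% of all genes. In TMPC against TM 5 of them rose, against 18%, and in TMP against TM 3 rose, against 14.3%. Nemf, which marks stalled large subunits for removal of their unfinished chains, led in both (1.08 ± 0.16 and 0.86 ± 0.16, adjusted p = 0.0027 and 0.0092).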

How the data were processed

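RNA of 12 bulk libraries was analysed, and 2 single-cell samples were not used here. Per the submitters' processing notes, the authors aligned reads to mm10 with STAR 2.6.0 and used DESeq2. The file headers name a column of counts and a DESeq2 column of normalized counts (signal) for each library, and the counts were used here. A deposited signal column, counts divided by a size factor per library, served only to check symbols: in the subcutaneous table the symbols were out of step with the counts from row 12291 on, and symbols were therefore taken by row position from the orthotopic table, after which 24419 of 24419 genes matched within 0.01 reads. Which program and gene models counted the reads, and whether with strand, is not given in the sources used here. Counts were fitted with the quasi-likelihood test of edgeR 4.0.16 in R 4.3.3, with TMM factors, filterByExpr and Benjamini-Hochberg adjustment over all genes tested (threshold 0.05). The 9 subcutaneous libraries shared a fit with 6 residual degrees of freedom, and the site comparison used 6 TMPC libraries with 4. A gene was called when it passed this test. Every adjusted p in the text comes from these fits, and SE is that of the log2 fold change. Levels are CPM with TMM factors, and levels per kilobase use GENCODE transcript lengths. Starts and promoters are from RefSeq (GRCm38.p6). On simulated counts, with 100 genes changed by each fold and far fewer changed in all than were called in the data, the site fit found 42.3% of genes changed 4-fold and 1.02% of those changed 2-fold. The changed genes were drawn from tested genes of all levels, not from the members. Alternatives were DESeq2 1.42.0, other scalings and filters, a replicate block, each library left out and, added after the values had been seen, total counts in place of TMM. The genes, the lists and the rule for named genes were chosen with earlier results of these data known, so no test is independent of that choice. By that rule the text names, per comparison, up to 6 members called in a direction with the smallest adjusted p (with none called, the 4 with the smallest unadjusted p), a list of members by role, paralogues and their partners, the 5 members with the largest and the 5 with the smallest relative spread, and examples of each related list. Members of the least change, Tpt1, Rpl14-ps1 and Rpl36al were named after their values were seen. Single values of a few genes are not reported here, and those genes stay in the counts and medians.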

Additional observations from a re-analysis of the deposited data

How the results depend on the processing

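No result reversed. The counts of called members moved most. For TMP against TM, where 4 rose, the count was 7 with DESeq2, 2 with the replicate block, 2 with total counts in place of TMM and 1 with only the 2 groups compared, and 0 to 4 when single libraries were left out. For TMPC against TM, where 15 rose, it was 23 with DESeq2, 8 with total counts, 6 with only the 2 groups and 3 to 18 with a library left out. For the site comparison, where 41 fell, it was 67 with DESeq2, 18 with the replicate block and 0 to 40 with a library left out. The cause was not tested. Under DESeq2 the median of all genes at the site comparison was 0.15, against 0.05 in edgeR. Medians of the members ranged from 0.15 to 0.42, 0.30 to 0.54, 0.03 to 0.33 and -0.83 to -0.57 with a library left out, for TMP against TM, TMPC against TM, TMPC against TMP and the site comparison. Without the 100 most abundant other genes the share of counts was 6.52% in TM, 7.95% in TMP, 8.65% in subcutaneous TMPC and 5.39% in orthotopic TMPC. With a library left out it ranged from 4.98% to 6.64% in TM, 6.40% to 7.32% in TMP, 6.99% to 7.85% in subcutaneous TMPC and 4.56% to 4.84% in orthotopic TMPC. Deviations of same-numbered replicates from their group means had r from -0.42 to 0.29 over genes. Between TM and TMP they were all positive (0.26, 0.29 and 0.07). Differently numbered replicates were not compared, so this cannot settle whether the numbers are pairs. They were not read as pairs, and the replicate block was kept as an alternative.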
